A study of Homo sapiens with 27 samples.

Results

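The RNA levels of 10 genes for DNA methylation and histone methylation enzymes were described in MM134 and SUM44 cells and in their estrogen-independent variants. The members were a list of 10 of the 60619 genes in the count table: DNMT1, DNMT3A, DNMT3B, UHRF1, TET1, TET2, TET3, EZH2, KMT2C and KDM5B. The list was chosen with earlier results of these data known. MM134 (MDA-MB-134VI) and SUM44 (SUM44PE) are ER-positive human cell lines of invasive lobular breast carcinoma. The LTED (long-term estrogen-deprived) variants arose separately during months of growth in charcoal-stripped serum, 4 from MM134 (LTED-A, LTED-B, LTED-D, LTED-E) and 2 from SUM44 (LTED-A, LTED-B), and values for several variants are given in this order. The parental cells, MM134 and SUM44F, had spent 3 days in the same hormone-deprived medium before collection, and so had SUM44PE. SUM44F is SUM44PE after months in medium with fetal bovine serum, and it is the parental control of the SUM44 variants. Each of the 9 groups had 3 libraries from wells of 1 culture, so the p-values measure the spread between wells and not between separate derivations.

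DNMT1 copies DNA methylation onto the new strand after replication, and UHRF1 recruits it to the hemimethylated sites. DNMT3A and DNMT3B place methylation on sites that had none, and TET1, TET2 and TET3 oxidise 5-methylcytosine, a step towards its removal. EZH2 is the catalytic subunit of PRC2, which lays down the repressive Polycomb mark on histone H3, KMT2C lays down H3K4 methylation at enhancers, and KDM5B removes H3K4 methylation. DNMT1, UHRF1 and EZH2 are known as genes that E2F factors switch on in cycling cells.

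The libraries held 28583554 to 134882175 estimated counts. Replicates 2 and 3 of SUM44 LTED-A agreed within sampling noise (chi-square per degree of freedom of 0.312, against 2.35 to 58.1 in all other pairs of a group) and were counted as 1 sample. This left 2 samples of SUM44 LTED-A and 26 in all. These 2 samples stood apart from each other, with more than 1.5-fold differences at 4.21% of 12261 expressed genes, where no pair of another group passed 3.05%. The luminal markers ESR1, GATA3, FOXA1, KRT8, KRT18, KRT19, EPCAM and CDH1 summed to between 4388 and 8468 CPM. SUM44F replicate 1 had fibroblast markers at a sum of 361 CPM, against 5.03 to 35.9 CPM in every other library, and all 6 genes of that list were highest there. Immune markers summed to 39.0 to 53.7 CPM in SUM44F and 13.7 to 17.3 CPM in its variants, with CD3E under 1 CPM in every library, and endothelial markers to 25.8 to 40.5 CPM and 2.80 to 4.51 CPM, with CDH5 under 1 CPM. In SUM44F these sums were mostly ITGAM (36.9 to 45.2 CPM) and PECAM1 (21.7 to 27.3 CPM). PTPRC was at 2.60 CPM in SUM44F replicate 1 but 0.332 and 0.423 CPM in replicates 2 and 3, and CD14 at 1.82, 0.0586 and 0.0445 CPM. In MM134 the immune sum was 0.701 to 1.33 CPM in parental cells and 9.89 to 23.3 CPM in the variants, and the luminal sum 4388 to 4411 CPM and 6116 to 7102 CPM. The part of these markers in the results was not tested. CDH1, which lobular carcinomas lose, lay between 8.35 and 24.6 CPM. When SUM44F replicate 1 was left out, no call of a member against SUM44F and none in the comparison of the cell lines was gained or lost.

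Levels are in CPM, counts scaled to a common library size by TMM over all samples, and a log2 fold change with its SE comes from edgeR. A gene was called changed if it passed 1.5-fold at an adjusted p below 0.001 (quasi-likelihood F-test, Benjamini-Hochberg over all genes tested). In bulk RNA, fewer expressing cells and less RNA per cell cannot be told apart. In MM134, 3 members fell in LTED-A, 1 in LTED-B, 2 in LTED-D and 1 in LTED-E, and 0 rose in any of the 4 by edgeR or DESeq2. At an unadjusted p under 0.05 and with no minimum fold, 8, 7, 7 and 4 members were lower and 1, 2, 2 and 2 were higher, in that order. Among all 26061 genes tested, 20.3% were called in LTED-A (10.5% higher, 9.82% lower), 15.9% in LTED-B (8.11% higher, 7.75% lower), 17.6% in LTED-D (9.63% higher, 7.95% lower) and 19.0% in LTED-E (8.71% higher, 10.3% lower). Counts of 1 to 3 among 10 members were thus near the share of all genes. In SUM44, 2 members rose and 2 fell in LTED-A, and 4 rose and 1 fell in LTED-B. Of the 26834 genes tested there, 13.7% were called in LTED-A (6.39% higher, 7.28% lower) and 17.3% in LTED-B (8.69% higher, 8.57% lower), against 4 and 5 of the 10 members. Because the members were chosen with earlier results of these data known, such shares here and below are no test of the list. The median log2 fold change of the members was -0.32, -0.23, -0.13 and 0.02 in the MM134 variants and 0.04 and 0.07 in those of SUM44, beside -0.09 to 0.02 for all genes.

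**Figure D1:**
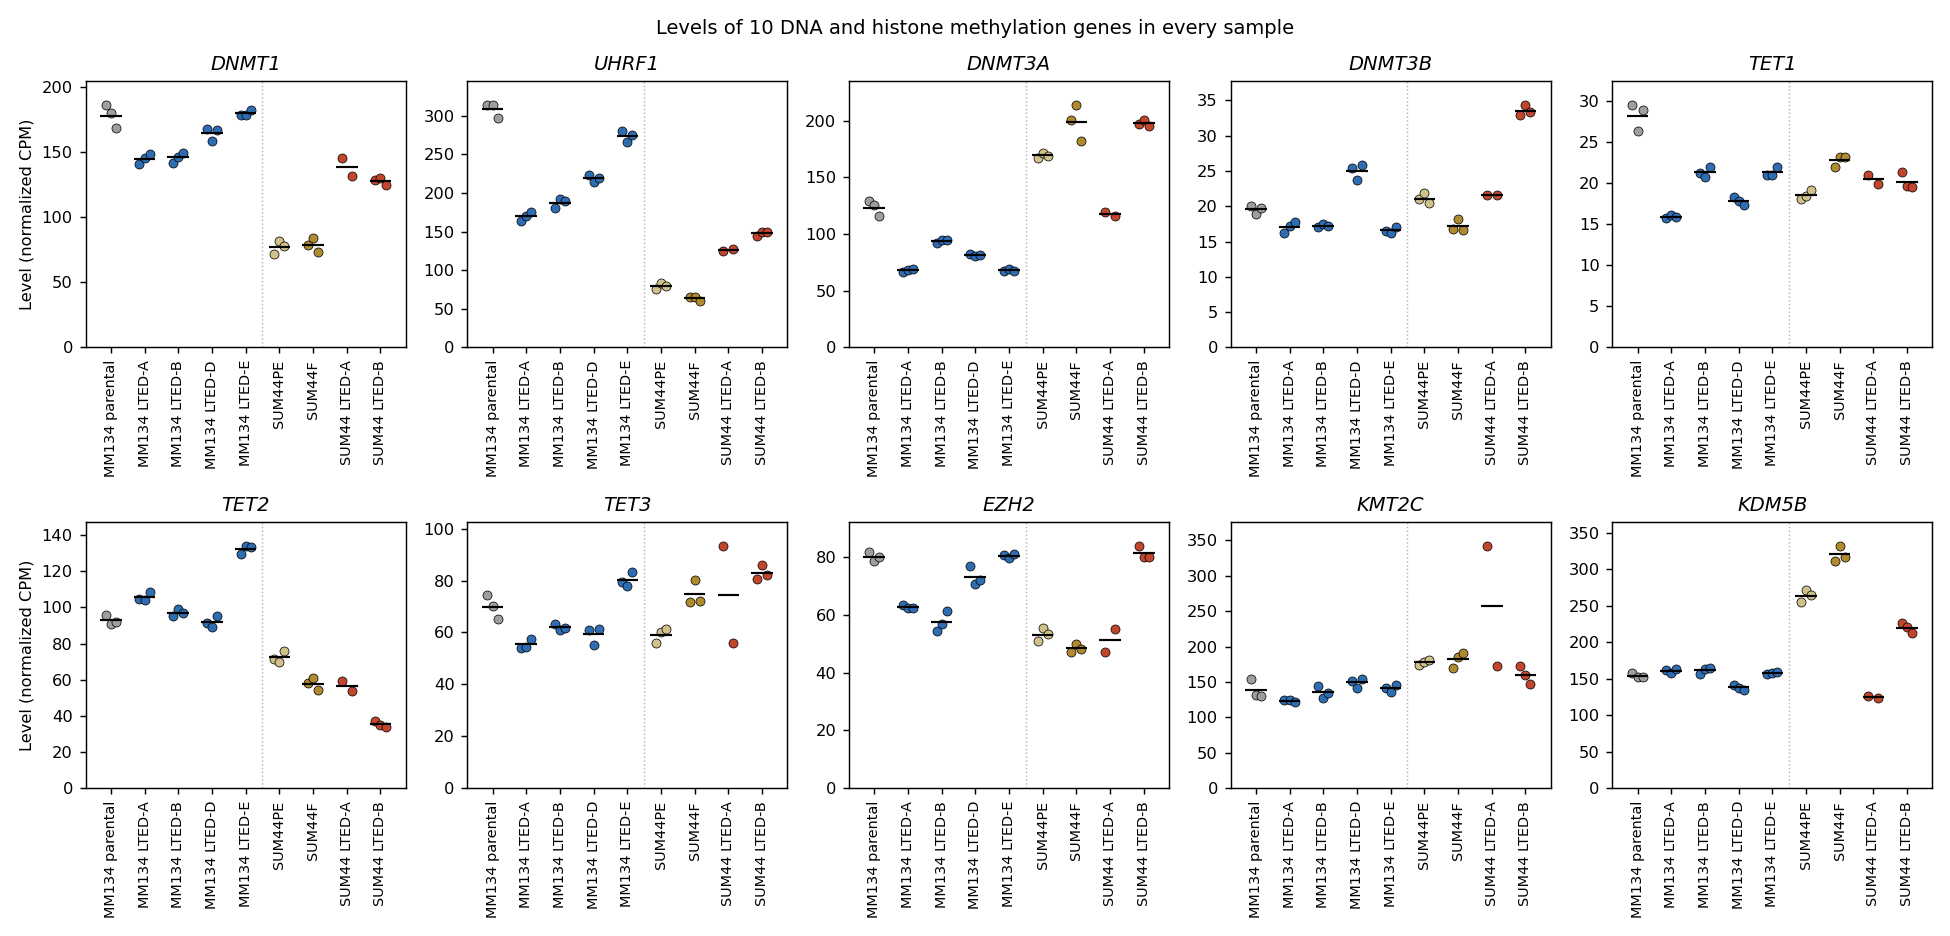
Levels in normalized CPM (vertical axes, each from 0) of the 10 genes in the 26 samples of the 9 groups. Points are samples and black lines are group means. UHRF1 was lower in every MM134 variant than in MM134 parental cells and higher in both SUM44 variants than in SUM44F.

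UHRF1 (ENSG00000276043, chr19:4903080-4962154 in hg38, plus strand) had the widest range of the 10 members, 4.82-fold between group means. Its level was 314, 314 and 298 CPM in MM134 parental cells, 164, 171 and 175 in LTED-A, 180, 193 and 190 in LTED-B, 224, 214 and 220 in LTED-D, and 281, 266 and 275 in LTED-E. All 12 samples of the MM134 variants lay below all 3 parental samples. The level was 65.5, 65.8 and 60.4 CPM in SUM44F, 76.0, 83.1 and 80.1 in SUM44PE, 125 and 127 in SUM44 LTED-A, and 144, 150 and 150 in SUM44 LTED-B. Here both variants lay above both parental cultures without overlap, yet below every MM134 group. UHRF1 fell in MM134 LTED-A (log2 fold change -0.87 ± 0.032 SE, n = 3 against 3, edgeR adjusted p = 3.56e-14) and LTED-B (-0.71 ± 0.032, adjusted p = 9.82e-13). The changes in LTED-D (-0.48 ± 0.032, adjusted p = 2.67e-10) and LTED-E (-0.16 ± 0.031, adjusted p = 0.000274) were below 1.5-fold. UHRF1 rose in SUM44 LTED-A (0.98 ± 0.069, n = 2 against 3, edgeR adjusted p = 1.86e-06) and LTED-B (1.21 ± 0.064, n = 3 against 3, edgeR adjusted p = 1.49e-07). The 40 nearest expressed genes on chromosome 19 had medians of 0.25 and 0.41 in these comparisons, above the median of all genes of -0.06 and -0.09.

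DNMT1 (ENSG00000130816, chr19:10133342-10231286, minus strand), the partner of UHRF1, had 186, 180 and 168 CPM in MM134 parental cells. It had 141, 145 and 148 CPM in LTED-A, 142, 146 and 150 in LTED-B, 167, 158 and 167 in LTED-D, and 178, 178 and 182 in LTED-E. LTED-A, LTED-B and LTED-D lay below the parental samples and LTED-E overlapped them. In SUM44F it had 78.7, 83.9 and 73.4 CPM, in SUM44PE 71.4, 81.3 and 77.6, in SUM44 LTED-A 145 and 132, and in SUM44 LTED-B 129, 130 and 125. DNMT1 rose in SUM44 LTED-A (0.82 ± 0.079, edgeR adjusted p = 1.83e-05) and in SUM44 LTED-B (0.70 ± 0.072, adjusted p = 2.25e-05), the latter only 0.57 with upper quartile scaling, below 1.5-fold. In MM134 the log2 fold changes were -0.30 ± 0.033 in LTED-A, -0.28 ± 0.034 in LTED-B, -0.10 ± 0.034 in LTED-D and 0.03 ± 0.033 in LTED-E, none of them called. The 40 nearest expressed genes of DNMT1 had medians of 0.12 and 0.31 in the SUM44 variants. In CPM, the group mean of DNMT1 was above that of UHRF1 in SUM44F (78.6 against 63.9) and SUM44 LTED-A (138 against 126). It was below that of UHRF1 in the other groups. Per kb of merged exons (15379 bases in DNMT1 and 5145 in UHRF1), UHRF1 stood above DNMT1 in every group. The ratio of these levels was lowest in SUM44F (2.43 ± 0.078 SD, n = 3) and highest in MM134 parental cells (5.19 ± 0.13, n = 3). This ratio was below the parental value in all 4 MM134 variants (3.51 to 4.56) and above that of SUM44F in both SUM44 variants (2.73 and 3.46). DNMT1 shares 83 exon bases with S1PR2 on the same strand, and how reads there were divided depends on the estimate.

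The promoters of DNMT1, UHRF1 and EZH2 are shown because these genes rose in at least 1 SUM44 variant and their windows hold a match to an E2F-type word. Each stretch runs from 150 bases before to 10 bases after the annotated start (RefSeq, GRCh38.p14), 5′ to 3′ on the strand of the gene, with the match in capitals. They lie at chr19:10194944-10195103 (DNMT1, minus strand), chr19:4909351-4909510 (UHRF1, plus strand) and chr7:148884282-148884441 (EZH2, minus strand).
DNMT1: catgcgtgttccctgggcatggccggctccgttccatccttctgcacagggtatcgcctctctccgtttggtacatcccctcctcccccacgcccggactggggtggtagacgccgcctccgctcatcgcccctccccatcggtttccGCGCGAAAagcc
UHRF1: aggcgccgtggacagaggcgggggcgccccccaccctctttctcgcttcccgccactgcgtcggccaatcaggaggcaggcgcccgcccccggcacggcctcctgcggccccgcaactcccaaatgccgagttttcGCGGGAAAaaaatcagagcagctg
EZH2: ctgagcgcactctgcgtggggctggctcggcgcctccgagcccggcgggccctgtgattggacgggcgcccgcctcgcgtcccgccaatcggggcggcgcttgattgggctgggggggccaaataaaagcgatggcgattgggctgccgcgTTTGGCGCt
The 4 words searched on both strands of 300-base windows (250 before and 50 after a start) were TTTCCCGC, TTTCGCGC, TTTGCCGC and TTTGGCGC. At least 1 of them was found in 3.31% of all 35116 promoter windows. All 10 members had windows, 22 in all, and 4 of these held a word: the window of DNMT1 (TTTCGCGC on the other strand), the windows of 2 of the 3 starts of UHRF1 (TTTCCCGC on the other strand in the printed stretch, TTTCGCGC in the next window) and the first window of EZH2 (TTTGGCGC). The match starts 2 bases before the start site in DNMT1, 14 bases before it in UHRF1 and at base 2 of the transcript in EZH2. The 300-base windows around these starts of DNMT1, UHRF1 and EZH2 hold 30, 36 and 46 CpG dinucleotides, against a median of 14 in all windows. Windows of members without a word spanned the same range and beyond. They held 3 in DNMT3B, 6 to 11 in TET1, 34 in KDM5B, 33 and 45 in TET3, 18 to 46 in DNMT3A and 56 in KMT2C. The only window of DNMT3B (chr20:32779602-32779901) lies inside the gene, which begins at 32762385. The sequence around its first start was thus not searched. The windows of DNMT1 and UHRF1 also lie inside the gene spans given above. A match is a description of the letters and was not tested as a binding site.

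DNMT3A (ENSG00000119772, chr2:25227855-25342590, minus strand) was lower in every MM134 variant than in the parental cells. Its level was 129, 126 and 116 CPM in MM134 parental cells, 66.6, 68.2 and 69.0 in LTED-A, 92.1, 94.5 and 95.0 in LTED-B, 82.1, 80.4 and 81.4 in LTED-D, and 67.3, 69.4 and 67.0 in LTED-E. No variant sample reached the lowest parental sample. DNMT3A fell in LTED-A (-0.87 ± 0.033, edgeR adjusted p = 7.10e-14), LTED-D (-0.59 ± 0.034, adjusted p = 3.23e-11) and LTED-E (-0.85 ± 0.033, adjusted p = 1.16e-13), while the change of -0.39 ± 0.033 in LTED-B was below 1.5-fold. The call in LTED-D lies at the fold limit and was lost with RLE size factors and in DESeq2 (-0.58 in each), and when any 1 of 8 MM134 libraries was left out (-0.56 to -0.58; parental replicates 1 and 2, LTED-A replicate 2, LTED-B replicates 1, 2 and 3, LTED-D replicate 2 or LTED-E replicate 3). In SUM44, the levels were 200, 214 and 182 CPM in SUM44F, 167, 172 and 169 in SUM44PE, 119 and 116 in LTED-A, and 197, 201 and 195 in LTED-B. LTED-A lay below all other SUM44 samples and SUM44PE between LTED-A and SUM44F, while LTED-B overlapped SUM44F. DNMT3A fell in SUM44 LTED-A (-0.76 ± 0.084, edgeR adjusted p = 5.01e-05), a change of -0.49 if SUM44PE was the reference, and its change in SUM44 LTED-B was -0.01 ± 0.074 (adjusted p = 0.929). The 40 nearest expressed genes of DNMT3A had a median of 0.41 in MM134 LTED-B and 0.04 to 0.10 in the other LTED variants.

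DNMT3B (ENSG00000088305, chr20:32762385-32809359, plus strand) had 20.1, 18.9 and 19.7 CPM in parental MM134 and 16.2 to 17.8 CPM in the 9 samples of LTED-A, LTED-B and LTED-E. LTED-D differed from these with 25.4, 23.7 and 25.8 CPM, above the parental samples. In SUM44F it had 16.8, 18.2 and 16.7 CPM, in SUM44PE 21.0, 21.8 and 20.4, in SUM44 LTED-A 21.6 in each sample, and in SUM44 LTED-B 33.0, 34.3 and 33.4, the highest level of all groups. DNMT3B rose in SUM44 LTED-B (0.96 ± 0.070, edgeR adjusted p = 1.76e-06). It changed by 0.33 ± 0.077 in SUM44 LTED-A (adjusted p = 0.0069) and by -0.21 ± 0.044, -0.18 ± 0.046, 0.36 ± 0.045 and -0.23 ± 0.045 in the MM134 variants, none of them called. The 40 nearest expressed genes of DNMT3B had medians of 0.12 and 0.27 in the SUM44 variants. Per kb of exon, the level of DNMT3A was above that of DNMT3B in all 9 groups. The ratio of the levels was 3.14 ± 0.20 (SD, n = 3) in MM134 parental cells and 1.63 to 2.71 in the variants, and 5.75 ± 0.27 (n = 3) in SUM44F against 2.72 and 2.94 in its variants. In SUM44 LTED-A DNMT3A was lower and DNMT3B higher than in SUM44F, and in SUM44 LTED-B DNMT3B was higher while DNMT3A overlapped SUM44F.

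TET1 (ENSG00000138336, chr10:68560337-68694487, plus strand) had the lowest level per kb of merged exons of the 10 members in every group except MM134 parental cells. In CPM, DNMT3B was lower than TET1 in SUM44F and in MM134 parental cells, LTED-B and LTED-E. TET1 had 29.4, 26.3 and 28.8 CPM in MM134 parental cells, 15.8, 16.1 and 15.9 in LTED-A, 21.2, 20.7 and 21.9 in LTED-B, 18.2, 17.8 and 17.3 in LTED-D, and 20.9, 20.9 and 22.0 in LTED-E. All variant samples were below all parental samples. TET1 fell in LTED-A (-0.83 ± 0.043, edgeR adjusted p = 7.20e-12) and LTED-D (-0.65 ± 0.045, adjusted p = 5.04e-10), with -0.40 ± 0.044 in LTED-B and -0.39 ± 0.043 in LTED-E. In SUM44, TET1 lay between 18.1 and 23.2 CPM in all 11 samples, and the changes of -0.15 ± 0.084 and -0.18 ± 0.075 were not called.

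TET2 (ENSG00000168769, chr4:105145875-105279816, plus strand) had 95.9, 91.1 and 91.8 CPM in parental MM134 and 88.9 to 109 CPM in LTED-A, LTED-B and LTED-D. LTED-E stood above all of them with 130, 134 and 133 CPM (0.52 ± 0.030, edgeR adjusted p = 3.61e-11, below 1.5-fold). In SUM44F it had 58.2, 61.2 and 54.1 CPM, in SUM44PE 71.4, 70.1 and 75.7, in SUM44 LTED-A 59.5 and 53.7, and in SUM44 LTED-B 37.4, 35.0 and 33.9. SUM44 LTED-B held the lowest level of the 9 groups, and TET2 fell there (-0.71 ± 0.074, edgeR adjusted p = 2.51e-05) but changed by only -0.03 ± 0.082 in SUM44 LTED-A. The 40 nearest expressed genes on chromosome 4 had medians of 0.47 and 0.20 in the SUM44 variants, so TET2 lay below its neighbours in both. The ratio of TET2 to TET1 per kb of exon was 1.93 ± 0.085 (SD, n = 3) in MM134 parental cells and 2.66 to 3.88 in the 4 variants, all above the parental range. In SUM44 it was 1.48 ± 0.10 (n = 3) in SUM44F, 2.28 ± 0.046 (n = 3) in SUM44PE, 1.61 ± 0.055 (n = 2) in LTED-A and 1.03 ± 0.013 (n = 3) in LTED-B, so LTED-A and SUM44PE lay above SUM44F and LTED-B below it.

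TET3 (ENSG00000187605, chr2:73984910-74108176, plus strand) was not called in any comparison of groups. The level was 53.9 to 63.3 CPM in MM134 LTED-A, LTED-B and LTED-D, 65.2 to 74.5 in parental MM134 and 77.8 to 83.4 in LTED-E, and the log2 fold changes were -0.35 ± 0.046, -0.17 ± 0.047, -0.23 ± 0.047 and 0.21 ± 0.046 from LTED-A to LTED-E. The 2 samples of SUM44 LTED-A disagreed, with 93.3 CPM in replicate 1 and 55.8 CPM in replicates 2 and 3, on either side of the 71.9 to 80.3 CPM of SUM44F. The change of -0.01 ± 0.17 there was 0.32 from replicate 1 alone and -0.37 from replicates 2 and 3 alone. TET3 shares 390 exon bases with the long non-coding RNA gene ENSG00000235499 on the same strand.

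EZH2 (ENSG00000106462, chr7:148807257-148884321, minus strand) had 81.8, 78.6 and 80.0 CPM in MM134 parental cells, 63.3, 62.2 and 62.3 in LTED-A, 54.5, 56.8 and 61.2 in LTED-B, 77.1, 70.7 and 71.9 in LTED-D, and 80.7, 79.8 and 80.9 in LTED-E. LTED-A, LTED-B and LTED-D lay below the parental samples and LTED-E among them. The changes of -0.36 ± 0.038, -0.47 ± 0.038, -0.12 ± 0.038 and 0.02 ± 0.038, in this order, were all below 1.5-fold. In SUM44F it had 47.0, 49.9 and 48.2 CPM, in SUM44PE 50.8, 55.3 and 53.2, in SUM44 LTED-A 47.1 and 55.2, and in SUM44 LTED-B 83.8, 80.0 and 79.8. SUM44PE lay just above SUM44F, LTED-A overlapped SUM44F, and LTED-B lay above all other SUM44 samples, at a level that overlapped MM134 parental cells. EZH2 rose in SUM44 LTED-B (0.75 ± 0.071, edgeR adjusted p = 1.22e-05) and changed by 0.08 ± 0.079 in SUM44 LTED-A (adjusted p = 0.466). Its 40 nearest expressed genes on chromosome 7 had medians of -0.05 in SUM44 LTED-A, -0.08 in SUM44 LTED-B and 0.31 in MM134 LTED-D.

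KMT2C (ENSG00000055609, chr7:152134922-152436644, minus strand) had 122 to 154 CPM in the 15 MM134 samples, with 154, 132 and 131 in the parental cells and changes between -0.17 ± 0.054 (LTED-A) and 0.12 ± 0.054 (LTED-D), none called. It had 169, 185 and 192 CPM in SUM44F, 174, 179 and 182 in SUM44PE, and 172, 160 and 147 in SUM44 LTED-B. SUM44 LTED-A again held samples that disagreed, 342 CPM in replicate 1 and 172 CPM in replicates 2 and 3, so its group mean rests on 1 library. The change of 0.50 ± 0.22 in SUM44 LTED-A (edgeR adjusted p = 0.100) was -0.03 without replicate 1 and 0.91 (adjusted p = 0.00026) without replicates 2 and 3. KMT2C has near-identical copies elsewhere in the genome and shares 238 exon bases with the antisense pseudogene FABP5P3, so its estimated counts are uncertain. Its 39 nearest expressed genes had medians of 0.25 and 0.18 in the SUM44 variants.

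KDM5B (ENSG00000117139, chr1:202724495-202808487, minus strand) was nearly level in MM134, where no sample of LTED-D passed 142 CPM and the other 12 samples lay between 152 and 165 CPM. The log2 fold changes were 0.05 ± 0.027, 0.07 ± 0.027, -0.15 ± 0.027 and 0.04 ± 0.027 from LTED-A to LTED-E, none called. In SUM44 the level was 311, 332 and 317 CPM in SUM44F, 255, 272 and 264 in SUM44PE, 127 and 123 in LTED-A, and 226, 221 and 212 in LTED-B. The groups did not overlap, and SUM44 LTED-A reached the lowest level of all 9 groups. KDM5B fell in SUM44 LTED-A (-1.36 ± 0.081, edgeR adjusted p = 5.20e-07), and the -0.55 ± 0.069 in SUM44 LTED-B (adjusted p = 9.62e-05) was just below 1.5-fold, but past it with upper quartile scaling (-0.68) and with at least 10 counts required in every library (-0.59). Its 40 nearest expressed genes on chromosome 1 had medians of -0.03 and -0.05.

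**Figure D2:**
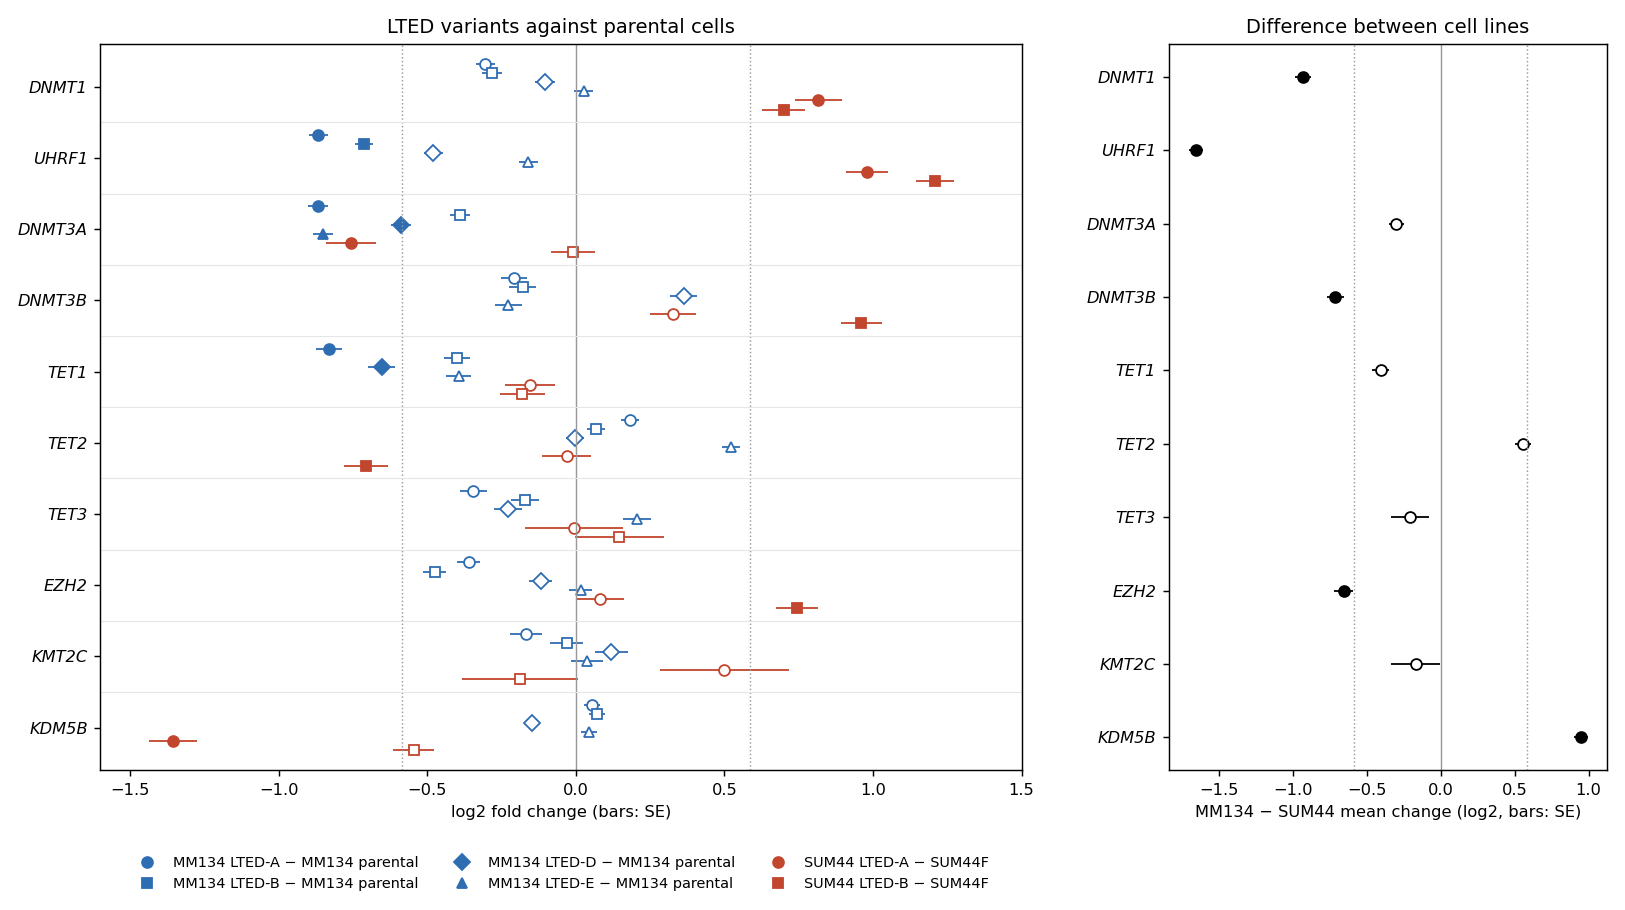
Log2 fold changes against parental cells (left, circles LTED-A, squares LTED-B, diamonds LTED-D, triangles LTED-E, MM134 blue and SUM44 red) and the difference of the mean changes, MM134 minus SUM44 (right), with bars of SE. Filled symbols were called and dotted lines mark 1.5-fold. UHRF1 lay at -0.87 to -0.16 in MM134 and at 0.98 and 1.21 in SUM44.

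The changes were compared between the cell lines as an interaction, with the mean over 4 MM134 variants taken first and the mean over 2 SUM44 variants subtracted, in 1 edgeR fit of both lines. Of the 10 members, 5 differed, against 20.9% of all 29200 genes tested. This share too is no test of the list, which was chosen with earlier results known. UHRF1 (-1.66 ± 0.049, edgeR adjusted p = 1.80e-17), DNMT1 (-0.93 ± 0.055, adjusted p = 2.88e-12), DNMT3B (-0.71 ± 0.057, adjusted p = 5.03e-10) and EZH2 (-0.66 ± 0.064, adjusted p = 1.14e-08) were lower in the MM134 contrast than in the SUM44 contrast. KDM5B differed the other way (0.95 ± 0.044, adjusted p = 4.83e-14). Upper quartile scaling left EZH2 at -0.56, below 1.5-fold, and took TET2 past it (0.65, from 0.55 ± 0.054). TET2 also passed with at least 10 counts in every library (0.60) and without SUM44F replicate 3 (0.61). DNMT3A (-0.30 ± 0.052, adjusted p = 4.84e-05) and TET1 (-0.41 ± 0.060, adjusted p = 5.29e-06) differed by less than 1.5-fold, and TET3 (-0.21 ± 0.13, adjusted p = 0.195) and KMT2C (-0.17 ± 0.17, adjusted p = 0.449) gave no call. Upper quartile scaling also moved the median change of all genes in SUM44 LTED-A from -0.06 to -0.15 and in SUM44 LTED-B from -0.09 to -0.23, and the share of calls that were higher in SUM44 LTED-B from 50.4% to 38.6%.

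Before long-term deprivation the cell lines already differed in most members. Between MM134 parental cells and SUM44F, 6 of the 10 were called, where 38.1% of all genes were. UHRF1 was 4.82-fold higher in group mean in MM134 (log2 difference 2.25 ± 0.043, edgeR adjusted p = 2.28e-21), and DNMT1 (1.16 ± 0.047), EZH2 (0.71 ± 0.053) and TET2 (0.67 ± 0.045) were also higher. KDM5B (-1.07 ± 0.037) and DNMT3A (-0.70 ± 0.044) were higher in SUM44F. These parental libraries also enter the changes above. For UHRF1 and DNMT1, the group means of the SUM44 variants thus lay between those of SUM44F and of MM134 parental cells. Between SUM44PE and SUM44F, 0 of the 10 were called, against 5.57% of all genes, by edgeR or by DESeq2, although 6 had an adjusted p under 0.05. These were TET1 (-0.31 ± 0.065), KDM5B (-0.29 ± 0.061), DNMT3A (-0.24 ± 0.065), TET2 (0.32 ± 0.065), UHRF1 (0.31 ± 0.060) and DNMT3B (0.28 ± 0.063), all below 1.5-fold, and 7 had an unadjusted p under 0.05.

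Most differences between the MM134 variants in these genes were below 1.5-fold. Of 60 differences (10 members in 6 pairs of variants), 2 were called: UHRF1 was lower in LTED-A than in LTED-E (-0.71 ± 0.032, edgeR adjusted p = 2.77e-12) and DNMT3B was higher in LTED-D than in LTED-E (0.59 ± 0.044, adjusted p = 2.84e-09). With no minimum fold, 37 of the 60 had an adjusted p under 0.001. The difference of DNMT3B lies at the fold limit, and 1 of the 60 remained called without LTED-D replicate 1, LTED-D replicate 3 or LTED-E replicate 2. Among all genes, 7.06% were called between LTED-A and LTED-B, 9.88% between LTED-A and LTED-D, 7.84% between LTED-A and LTED-E, 7.40% between LTED-B and LTED-D, 9.78% between LTED-B and LTED-E, and 11.6% between LTED-D and LTED-E. The SUM44 variants differed in 5 members, against 7.42% of all genes. DNMT3A (-0.75 ± 0.084, adjusted p = 0.000106), DNMT3B (-0.63 ± 0.079, adjusted p = 0.000196), EZH2 (-0.66 ± 0.080, adjusted p = 0.000166) and KDM5B (-0.81 ± 0.079, adjusted p = 3.78e-05) were lower in LTED-A than in LTED-B, and TET2 was higher (0.68 ± 0.082, adjusted p = 0.000164). This count fell to 1 without LTED-A replicate 1 or without LTED-B replicate 2, to 2 without LTED-B replicate 3 and to 3 without LTED-B replicate 1, where the folds kept their direction and the adjusted p of those lost lay between 0.00111 and 0.0022.

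UHRF1, DNMT1 and EZH2 were set beside 15 genes of proliferating cells (MKI67, PCNA, TOP2A, MCM2 to MCM7, CCNB1, CDK1, BIRC5, RRM2, TYMS and CCNE2). In MM134, 3 of these fell in LTED-A, 2 in LTED-B, 3 in LTED-D and 1 in LTED-E, and 0 rose by edgeR, while at an unadjusted p under 0.05 14, 14, 10 and 5 were lower and 1, 0, 2 and 7 higher. Of all genes tested, 7.75% to 10.3% fell in the MM134 variants, 6.39% and 8.69% rose in the SUM44 variants, and the interaction called 20.9%. In each SUM44 variant 12 of the 15 rose and 0 fell, and the interaction called 14. Their median log2 fold change was -0.38, -0.25, -0.15 and 0.05 in the MM134 variants, and 0.94 and 0.97 in those of SUM44. Their summed level averaged 4260 CPM in parental MM134, with 2913, 3251, 3386 and 3918 CPM in its variants, 1478 CPM in SUM44F, 1888 CPM in SUM44PE, and 2772 and 2971 CPM in the SUM44 variants. The order of the 9 groups by UHRF1 was that by this sum, except that SUM44 LTED-B and MM134 LTED-A changed places. DNMT1 and EZH2 departed from that order in more places, and the levels of DNMT3A did not follow it. EZH2 averaged 51.1 CPM in SUM44 LTED-A and 48.4 CPM in SUM44F, although the sums were 2772 and 1478 CPM. Pearson's r with the mean of these 15 genes was 0.969 for UHRF1, 0.906 for DNMT1, 0.744 for EZH2 and -0.105 for DNMT3A. It was taken over the 9 group means of log2(CPM + 1) after centring each cell line, as a description. The groups share libraries and scaling with this sum, and the part of cell cycling in the changes of UHRF1, DNMT1 and EZH2 was not tested.

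**Figure D3:**
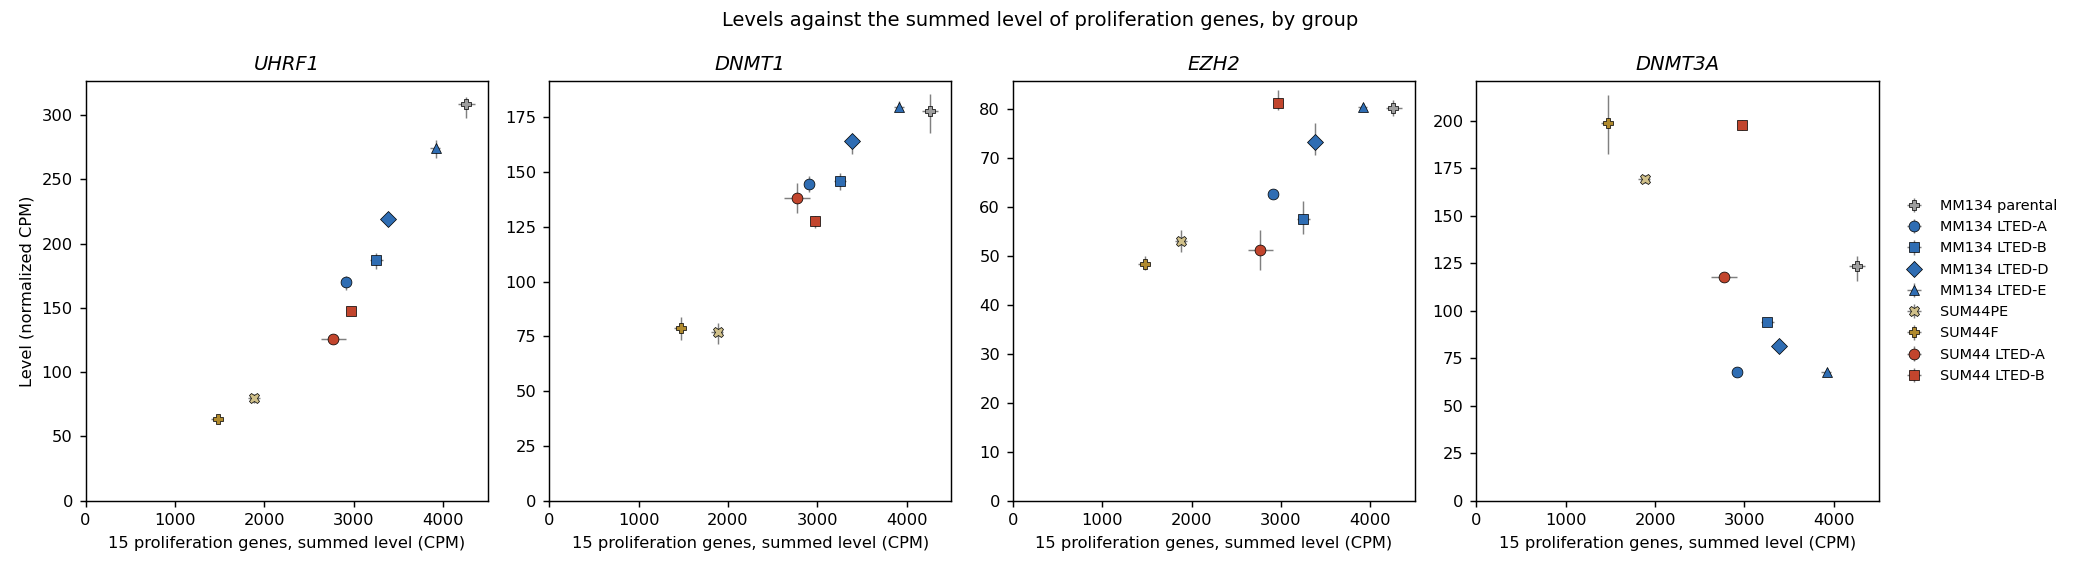
Level in normalized CPM of UHRF1, DNMT1, EZH2 and DNMT3A (vertical axes) against the summed level of 15 proliferation genes in CPM (horizontal axis), as group means with bars from the lowest to the highest sample. UHRF1 was lowest in SUM44F, at a sum of 1478 CPM, and highest in MM134 parental cells, at 4260 CPM, while DNMT3A was lowest in MM134 LTED-E and LTED-A.

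Partners of the members were counted from fixed lists, written with earlier results of these data known. The share of all genes called in each direction was 7.75% to 10.5% in the MM134 variants and 6.39% to 8.69% in those of SUM44. Among 16 partners and readers of DNA methylation, GADD45A, which takes part in active demethylation and in growth arrest, fell in all 6 variants, with log2 fold changes of -1.98, -1.57, -1.79 and -2.87 from MM134 LTED-A to LTED-E and -2.91 and -2.30 in the SUM44 variants. Its mean level was 23.3 CPM in parental MM134 and 17.2 CPM in SUM44F, against 2.28 to 7.82 CPM in the variants. ZBTB33, a reader that binds methylated DNA, fell in both SUM44 variants (-0.94 and -0.62) and was also lower in SUM44PE than in SUM44F (-0.63). In all, the list had 1 gene higher and 2 lower in MM134 LTED-A and LTED-D and in SUM44 LTED-A, 0 and 1 in MM134 LTED-B and LTED-E, and 0 and 3 in SUM44 LTED-B. Its medians of -0.20 to 0.04 lay near the -0.09 to 0.02 of all genes.

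Of the 11 partners of EZH2 in PRC2 that could be tested, the core subunits SUZ12 and EED were not called in any LTED variant. The mean level of RBBP4, also of the core, was 448 CPM in parental MM134 and 272, 309, 319 and 302 CPM in its variants. It was 140 CPM in SUM44F, and 136 and 169 CPM in SUM44 LTED-A and LTED-B. EPOP, an accessory subunit, fell in MM134 LTED-A (-0.88), LTED-B (-1.34) and LTED-E (-1.44). In MM134 LTED-A, 3 of the list fell, where 9.82% of all genes did, and at most 1 in each other variant. Of 16 genes listed as H3K4 methyltransferases and COMPASS subunits, KMT2E rose in all 4 MM134 variants (0.92, 0.89, 0.84 and 0.75), from 21.9 CPM to between 36.5 and 41.7 CPM. KMT2E was listed by its family name, and its activity on H3K4 was not measured. In SUM44 LTED-A, 0 of these 16 were called by edgeR and 4 by DESeq2, at a median of 0.53, and 11 were higher and 1 lower at an unadjusted p under 0.05. The samples disagreed as for KMT2C, with 8 called from replicate 1 alone and 1 from replicates 2 and 3 alone. In SUM44 LTED-B 2 rose, where 8.69% of all genes did, and 1 when any of SUM44F replicates 1 and 3 or its own replicates was left out.

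Among 17 other histone demethylases, KDM7A fell in both SUM44 variants (-2.31 and -1.67) but rose in MM134 LTED-A (1.61) and LTED-E (1.31). It was also lower in SUM44PE than in SUM44F (-0.63), and its interaction was 2.85 ± 0.069 (edgeR adjusted p = 4.43e-19). Among 15 methyltransferases of other histone sites, SUV39H1, SUV39H2, NSD2 and KMT5A rose in both SUM44 variants by 0.76 to 0.91, and KMT5C fell in MM134 LTED-A (-0.73), LTED-B (-0.59) and LTED-E (-0.997). Of 15 genes that supply methyl groups or 2-oxoglutarate, the cosubstrate of TET and many KDM enzymes, IDH1 rose in MM134 LTED-A (0.61), LTED-D (0.81) and LTED-E (0.92) but fell in SUM44 LTED-A (-0.96). In SUM44, SHMT2 of the folate cycle (1.45 and 1.33) and AHCY of the methionine cycle (0.80 and 0.92) rose in LTED-A and LTED-B.

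Germline genes that are commonly silenced by promoter methylation in somatic cells were mostly too low to test. Of 12, 4 could be tested in MM134 and 6 in SUM44. In SUM44 LTED-A 3 fell, in LTED-B 3 fell and 1 rose, and in MM134 1 rose in LTED-A and 3 in LTED-D. Of all genes tested, 7.28% fell in SUM44 LTED-A, and 8.57% fell and 8.69% rose in LTED-B. In MM134, 10.5% rose in LTED-A and 9.63% in LTED-D. STK31 fell from 8.45 ± 0.90 CPM (SD, n = 3) in SUM44F to 2.57 ± 0.49 (n = 2) in LTED-A and 4.52 ± 0.41 (n = 3) in LTED-B. SYCP3 went the other way, from 3.66 ± 0.69 CPM (n = 3) in SUM44F to 8.48 ± 0.36 (n = 3) in LTED-B. In LTED-A SYCP3 was at 5.57 ± 1.13 CPM (n = 2, not called). BRDT and DDX4 were at 1.08 and 0.460 CPM in SUM44F and lower in both variants, where no sample had more than 31 counts of BRDT or 2 of DDX4. Both genes were also lower in SUM44PE than in SUM44F, at 0.300 and 0.119 CPM (log2 fold changes of -1.80 and -1.95, not called). STK31 was at 7.29 CPM in SUM44PE (-0.22, not called). The counts rested on single libraries, with 1 left in SUM44 LTED-A without SUM44F replicate 2 or without either of its own samples, and 1 left in LTED-B without its replicate 2 and 2 left without SUM44F replicate 2, SUM44F replicate 3 or LTED-B replicate 3. DNA methylation was not measured.

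**Figure D4:**
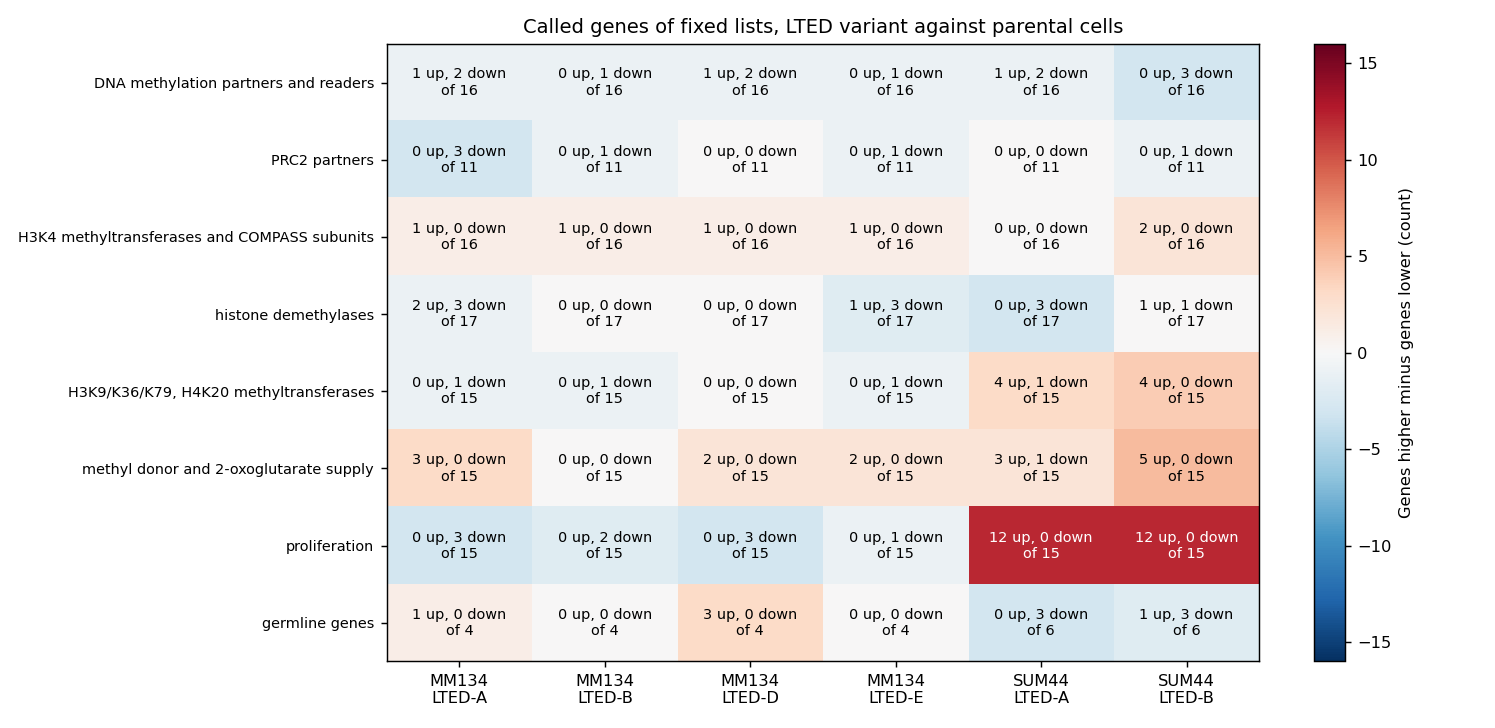
Number of genes called higher and lower, of those tested, in 8 fixed lists (rows) for the 6 LTED variants against parental cells (columns). Colour gives genes higher minus genes lower. The proliferation list stands out in SUM44, with 12 higher and 0 lower in each variant.

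The genes whose patterns were most like those of the members were sought among 11879 expressed genes, by Pearson's r over the 9 group means of log2(CPM + 1) after centring each cell line. With so few points that share libraries, r describes likeness only. For DNMT1 they were CDC25A, GAS2L3 and CIP2A (r of 0.986 each), for UHRF1 FEN1, ATAD2 and ZNF106 (0.978 to 0.983), and for EZH2 GTF3C5, HNRNPL and PMF1 (0.954 to 0.961). CDC25A drives entry into the S phase and FEN1 processes DNA ends during replication. For DNMT3A they were FNBP1P1, YPEL2 and MARCHF8 (0.954 to 0.961), for DNMT3B CENPB, ANTKMT and TBC1D4 (0.964 to 0.968), and for KDM5B PGBD4, RCBTB1 and TRIM5 (0.983 to 0.986). For TET1 they were DCP2, GRHPR and C20orf204 (0.939 to 0.970), for TET2 CCNC, CHD3 and LINC00680 (0.947 to 0.959), for TET3 RBBP5, RBMXL1 and CDKN2A (0.947 to 0.956), and for KMT2C WRNIP1 and CNOT4 (0.958 and 0.936). Within the 10 members, UHRF1 was most like DNMT1 (r of 0.902) and EZH2 (0.788), while KDM5B ran opposite to DNMT1 (-0.799).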

How the data were processed

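RNA-Seq was measured in 27 libraries of 9 groups. The authors made stranded total RNA libraries and, per the submitters' processing notes, used Salmon 0.6.0 and hg38; they deposited estimated counts per Ensembl gene, not normalized for library size or gene length. Trimming and the strand setting are not given in the sources used here. Groups came from the sample labels. The members and gene lists were chosen with earlier results of these data known.

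Counts were rounded. Of 60619 genes, 56434 were matched to GENCODE v44 for symbols and positions. Genes were filtered with filterByExpr, scaling by TMM was applied, and edgeR 4.0.16 gave two-sided quasi-likelihood tests (Benjamini-Hochberg, R 4.3.3) from 1 fit of MM134 (26061 genes), 1 for SUM44F and its variants (26834), 1 that added SUM44PE (27457) and 1 of both lines (29200). Called genes had an adjusted p under 0.001 and over 1.5-fold, the study's thresholds. Levels between genes are per kb of merged exons, the union of all annotated exons, which can be longer than the transcripts present. Promoter windows came from RefSeq. The procedure was tested on simulated data. All members are named, and a few other genes are not reported here. Of a list, genes called in the same direction in at least 3 MM134 variants or both SUM44 variants could be named, up to 4 per line, and others were named after their values were seen. Alternatives were no filter, at least 10 counts in every library, RLE size factors, upper quartile scaling, DESeq2 1.42.0, a fold minimum of 2, no fold minimum, a threshold of 0.05 for the adjusted p, thinned counts, a replicate block, each library left out, parental cells with 1 variant, SUM44PE in the fit or as reference, and replicates 2 and 3 of SUM44 LTED-A kept separate. Counts cover sampling error only at the stated depths.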

Additional observations from a re-analysis of the deposited data

Results flagged for a closer look

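For 5 members, the change against parental cells differed between the cell lines by a test of the difference itself (edgeR interaction of the mean change in MM134 variants and in SUM44 variants). The log2 difference was -1.66 for UHRF1, -0.93 for DNMT1, -0.71 for DNMT3B, -0.66 for EZH2 and 0.95 for KDM5B. UHRF1 was lower than parental cells in 4 of 4 MM134 variants and higher in 2 of 2 SUM44 variants. For KDM5B the difference lay in SUM44, where both variants were lower, while the MM134 variants changed by -0.15 to 0.07. For DNMT3B and EZH2 the mean change in SUM44 came mainly from LTED-B (0.96 and 0.75), with 0.33 and 0.08 in LTED-A. MM134 LTED-D changed by 0.36 in DNMT3B, above SUM44 LTED-A, so the difference in DNMT3B does not hold for every variant. For EZH2 the highest change in MM134, 0.02 in LTED-E, lay below that of SUM44 LTED-A. The EZH2 change in SUM44 LTED-A became -0.042 without its replicates 2 and 3. The cause was not tested.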

How the results depend on the processing

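The number of members called depends mainly on the minimum fold. Without one it was 8 in MM134 LTED-A, 5 in LTED-B, 6 in LTED-D, 6 in LTED-E, 8 in the interaction and 37 over the pairs of MM134 variants. With a minimum of 2-fold it was 0 in the 4 MM134 variants and in the pairs of variants of either line, 1 in SUM44 LTED-A, in SUM44 LTED-B and in the interaction, and 3 between MM134 parental cells and SUM44F. RLE size factors and DESeq2 gave 1 in MM134 LTED-D, and no filter gave 1 over the MM134 pairs. With single libraries left out, the count ranged from 1 to 2 in MM134 LTED-D, from 1 to 3 over the MM134 pairs and from 1 to 6 between the SUM44 variants. A group left with 1 sample was assumed to vary like the others.

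Signs turned only for changes that were not called. DNMT3A in SUM44 LTED-B was 0.0050 without a filter, 0.025 with RLE size factors and in DESeq2, 0.0091 with SUM44PE in the fit and 0.25 with SUM44PE as reference. With that reference, TET1 was 0.18 in SUM44 LTED-A and 0.14 in LTED-B, EZH2 was -0.014 and TET3 0.37 in SUM44 LTED-A. EZH2 there was -0.0097 with upper quartile scaling. TET2 was 0.0039 and 0.0044 in MM134 LTED-D and 0.0036 and 0.0037 in SUM44 LTED-A with RLE size factors and DESeq2. TET3 in SUM44 LTED-A was 0.0025 without a filter, 0.023 and 0.024 with RLE and DESeq2, 0.0022 in a fit of 1 variant and 0.016 with SUM44PE in the fit. With libraries left out, the ranges were -0.0094 to 0.058 (DNMT1, MM134 LTED-E), -0.088 to 0.022 (DNMT1, SUM44PE), -0.066 to 0.049 (DNMT3A, SUM44 LTED-B), -0.042 to 0.24 (EZH2, SUM44 LTED-A), -0.38 to 0.079 (KMT2C, interaction), -0.083 to 0.048 and -0.00037 to 0.12 (KMT2C, MM134 LTED-B and LTED-E), -0.033 to 0.91 (KMT2C, SUM44 LTED-A), -0.084 to 0.033 (KMT2C, SUM44PE), -0.024 to 0.021 (TET2, MM134 LTED-D), -0.061 to 0.040 (TET2, SUM44 LTED-A), -0.37 to 0.32 (TET3, SUM44 LTED-A) and -0.54 to 0.17 (TET3, between SUM44 variants). The cause was not tested beyond the libraries named.

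Samples with the same replicate number did not deviate together (correlations between -0.50 and 0.37), so the numbers pair no samples. With a replicate block, DNMT3B between the SUM44 variants had an adjusted p of 0.00143 (-0.65) and no other member call changed.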
